A study of Mus musculus with 1392 samples.

Results

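The Gata1 locus on the mouse X chromosome, with its neighbours Hdac6 and Pim2, was described by 24 of the 115295 chromatin peaks in a single-cell ATAC-seq table. ATAC-seq reads open chromatin, because a transposase can cut and tag only DNA that nucleosomes and other proteins leave free. The peaks were chosen by position: each overlapped chrX:7420000-7600000 of the mm9 build, a window of 180 kb. This stretch was picked because its accessibility differed between old and young cells in these same libraries, so the difference between the ages is given here as a description. Calls from a fit across the whole table are stated for each peak, but they are no independent test of a window picked on the same contrast.

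The cells were haematopoietic stem cells (HSCs) of old and of young C57BL/6 mice, sorted from bone marrow with the gate LSKCD150+CD48-CD34-Vwf+. LSK stands for cells without lineage markers and with Sca-1 and Kit, and Vwf+ HSCs are known as a platelet-inclined class of stem cells. The study asked whether subtypes of HSCs change in proportion during ageing. The 1060 old cells came in 3 numbered sets and the 332 young cells in 2. The labels give no ages, sexes or numbers of mice, and do not say what a set stands for, whether mouse, pool or plate. Each set was taken as 1 replicate, so calls weigh the ages only against differences among sets, which may be technical. Since every set holds a single age, effects of age and of how a set was prepared cannot be told apart.

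Gata1 encodes a zinc-finger transcription factor that drives erythroid, megakaryocytic, eosinophil and mast cell programmes and is lower in most stem cells than in those lineages. Mouse Gata1 is known to be controlled by an element a few kb upstream of its haematopoietic first exon, by an element in its first intron and by a far upstream element active in erythroid and megakaryocytic cells. Hdac6 encodes a mostly cytoplasmic deacetylase that acts on tubulin, and Pim2 encodes a serine/threonine kinase that promotes survival downstream of cytokine receptors. The reference gene table is of a later build. In it the order of genes runs Kcnd1, Otud5, Pim2, Slc35a2, Pqbp1, Timm17b, Pcsk1n, Eras, Hdac6, Gata1, Glod5 and Suv39h1. Otud5 and Pim2 are on the plus strand and both Hdac6 and Gata1 on the minus strand. The mm9 gene positions used here are approximate: Pim2 at 7455000 to 7461000, Hdac6 at 7507000 to 7525000, Gata1 at 7536000 to 7545000, and the upstream enhancer near 7548000. No peak was assigned to the genes between Pim2 and Hdac6, nor to Otud5 or Kcnd1 ahead of Pim2.

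The start regions of the 3 genes are shown because peaks lay at each stated start and the levels there differed widely. The sequences are RefSeq's, each covering 250 bases before and 50 after the start, on the gene's own strand and in GRCm38.p6 coordinates, which are not those of the peaks. All 3 genes had an entry. Capitals mark the motif words found on either strand: the CACCC box (CACCC, or GGGTG on the other strand) and the GC box (GGGCGG, or CCGCCC on the other strand).
Pim2, chrX:7878056-7878355, plus strand: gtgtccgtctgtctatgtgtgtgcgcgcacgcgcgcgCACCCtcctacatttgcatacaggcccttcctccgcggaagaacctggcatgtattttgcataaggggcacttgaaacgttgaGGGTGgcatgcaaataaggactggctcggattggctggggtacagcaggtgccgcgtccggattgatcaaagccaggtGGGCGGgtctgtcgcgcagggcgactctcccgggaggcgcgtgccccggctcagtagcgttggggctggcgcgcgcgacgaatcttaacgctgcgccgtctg
Hdac6, chrX:7947840-7948139, minus strand: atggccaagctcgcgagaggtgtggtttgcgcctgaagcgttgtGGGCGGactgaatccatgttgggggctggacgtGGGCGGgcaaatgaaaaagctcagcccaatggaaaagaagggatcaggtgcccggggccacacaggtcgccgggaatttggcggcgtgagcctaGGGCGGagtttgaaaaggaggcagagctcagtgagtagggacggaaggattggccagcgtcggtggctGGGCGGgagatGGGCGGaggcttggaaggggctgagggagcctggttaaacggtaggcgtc
Gata1, chrX:7967861-7968160, minus strand: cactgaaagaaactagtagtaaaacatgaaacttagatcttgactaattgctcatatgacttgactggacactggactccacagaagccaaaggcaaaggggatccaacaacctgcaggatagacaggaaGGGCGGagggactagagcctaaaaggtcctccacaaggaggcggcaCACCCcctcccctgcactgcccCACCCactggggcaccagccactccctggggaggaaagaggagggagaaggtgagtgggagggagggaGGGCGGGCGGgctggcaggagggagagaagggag
The Hdac6 window held 5 GC boxes and no CACCC box. The Gata1 window held 2 CACCC boxes and 3 GC boxes, of which the 2 nearest the start overlap each other. The Pim2 window held 2 CACCC boxes and 1 GC box. A CACCC box was found in 57.5% and a GC box in 35.7% of the 32851 promoter windows of the table. None of the 3 windows held the GATA words AGATAA and AGATAG or TGATAA and TGATAG, one of which was found in 29.8% of all windows, nor the ETS word CCGGAA, found in 14.9%. CpG pairs numbered 31 in the Pim2 window and 20 in the Hdac6 window but 4 in the Gata1 window, beside a median of 7 over all windows, while GC content was 62.7%, 62.0% and 57.3% against a median of 52.7%. The start regions of Pim2 and Hdac6 were thus denser in CpG than that of Gata1. A match is a description of the letters and not evidence of binding.

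Total counts ran from 1640887 to 4181770 in the old sets and from 1159957 to 2589894 in the young sets, and the median count per cell from 3604.5 to 9623 in old and from 6133 to 11807 in young. Levels below are in CPM, the usual scaling of counts to a common total, with totals adjusted by TMM to remove differences in composition. Fold changes are log2 of old over young with their standard errors (SE), from an edgeR quasi-likelihood fit across all 58167 peaks that passed the count filter. A peak was called at an adjusted p under 0.05 over all of them. By that rule 1.39% of the tested peaks were called higher in old and 1.78% lower.

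Summed over the 24 peaks, accessibility was 503.6, 368.8 and 456.2 CPM in old 1, old 2 and old 3, against 204.2 and 171.0 CPM in young 1 and young 2. All old sets lay above both young sets, and the lowest old set was 1.81 times the highest young one. The means were 443 ± 68.4 CPM in old and 188 ± 23.5 CPM in young (SD, n = 3 and 2 sets), a log2 difference of 1.24. Without the 4 peaks with most counts the difference was 1.22. The window held 0.0459%, 0.0333% and 0.0419% of all counts in the old sets, against 0.0177% and 0.0147% in the young sets.

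Of the 24 peaks, 13 passed the count filter and 8 of these were called higher in old and 0 lower. On chromosome X as a whole 0.858% of tested peaks were called higher in old and 4.68% lower, and 8 of its 11 peaks called higher were those of the locus. Because the window was chosen on this contrast, nothing is read from these counts. The count of 8 rested in part on young 2: without it 3 peaks were called, those at 7442380, at the Hdac6 start and at the Gata1 upstream enhancer. With every cell thinned to the same depth 5 peaks of the locus could be tested and 1, at the Hdac6 start, was called. The 13 peaks had a median log2 fold change of 1.49, beside -0.01 over all tested peaks and -0.11 over the 1269 tested peaks elsewhere on X. In 10 of the 13 every old set lay above every young set, an ordering found in 16.4% of all tested peaks.

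**Figure D1:**
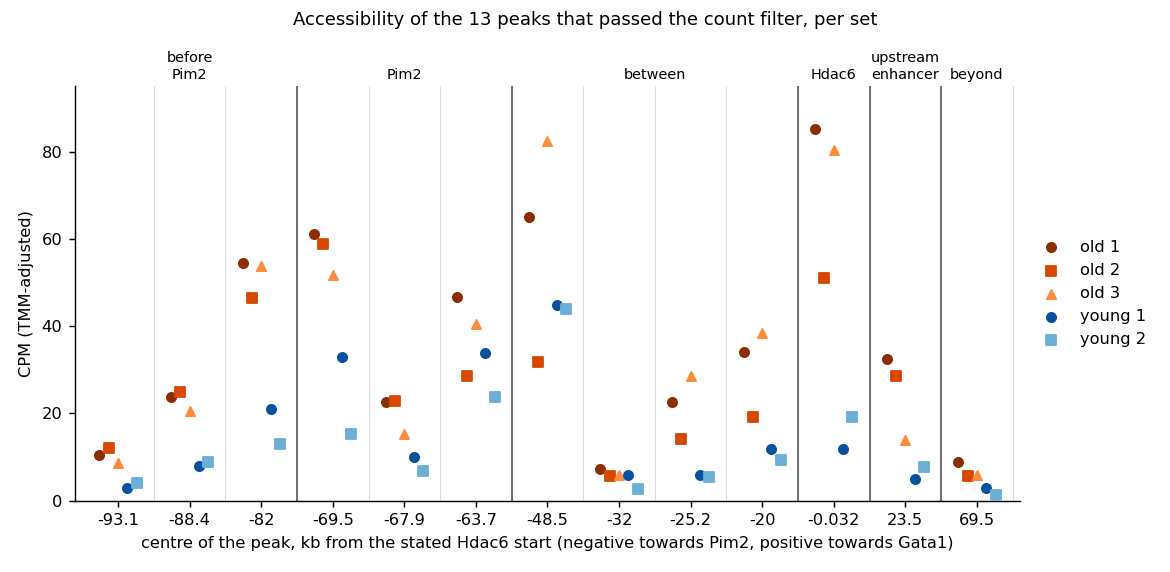
CPM (TMM-adjusted, vertical axis) of the 13 peaks that passed the count filter, 1 point per set, with peaks in order along the chromosome and labelled by the distance of their centre from the stated Hdac6 start in kb. Old sets lie above both young sets at 10 of the 13 peaks, with the widest gap at the Hdac6 start, and the sets overlap at 63.7, 48.5 and 32.0 kb towards Pim2.

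The peak at the start of Hdac6, at 7524283 to 7525653, had the highest level per length in old of the 24 peaks. It measured 85.2, 51.1 and 80.4 CPM in the old sets, against 12.0 and 19.3 CPM in the young sets. The groups were far apart, with the lowest old set at 2.65 times the highest young set. The log2 fold change was 2.13 ± 0.27 (SE), and the peak was called. Per kb of peak, the old mean was 52.7 CPM at this start, 43.8 CPM at the start of Pim2 and 27.2 CPM at the Gata1 upstream enhancer. The only other peak within the Hdac6 interval, at 7514011 to 7514305, held 14, 3 and 2 counts in the old sets, against 0 and 6 in the young sets, and was too low to test.

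Shares of single cells with a count at the Hdac6 start depended on depth. Before thinning, 45.8%, 17.9% and 23.3% of old 1, old 2 and old 3 cells had a count there, against 4.42% of young 1 and 25.2% of young 2 cells. Young 2, with the deepest cells, lay above old 2 and old 3. Thinned to 1906 counts per cell, the shares were 13.1%, 8.45% and 11.5% in the old sets, against 1.13% and 2.74% in the young sets. At equal depth every old set was above both young sets. The exact Clopper-Pearson 95% intervals, which cover counting error only, ran from 8.93% to 18.2%, 5.81% to 11.8% and 8.29% to 15.3% in the old sets, against 0.137% to 4.02% and 0.751% to 6.87% in the young sets. The interval of old 2 therefore overlapped that of young 2. Thinning left out 84, 13 and 34 cells of the old sets and 4 and 5 cells of the young sets, which held fewer counts than this.

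**Figure D2:**
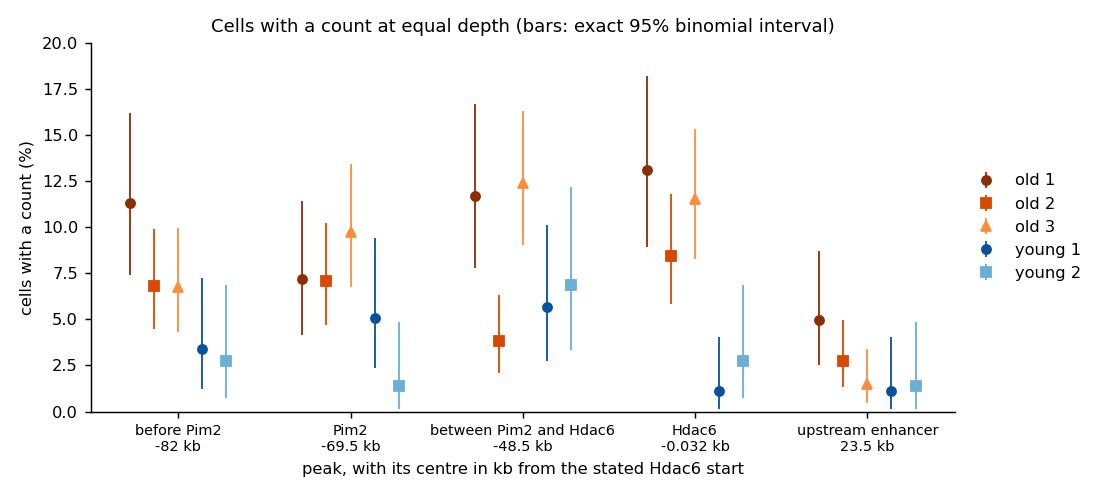
Share of cells (%, vertical axis) with at least 1 count at 5 peaks of the locus after thinning each cell to 1906 counts, 1 point per set, with exact 95% binomial intervals. At the Hdac6 start the old sets lie at 8.45% to 13.1%, above the young sets at 1.13% and 2.74%, while at the peak 48.5 kb towards Pim2 old 2 lies below both young sets.

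The upstream enhancer of Gata1 was covered by 1 peak, at 7548072 to 7548993, centred 3.53 kb upstream of the stated Gata1 start. It measured 32.5, 28.7 and 14.0 CPM in the old sets, against 4.98 and 7.63 CPM in the young sets. Old 3 was the lowest old set and still lay above both young sets. The log2 fold change was 1.95 ± 0.37, or 3.86-fold, and the peak was called. Shares of cells with a count there depended on depth. Before thinning they were 20.3%, 11.8% and 5.08% in the old sets, against 2.76% and 7.28% in the young sets. Old 3 then lay below young 2. At equal depth 4.95%, 2.72% and 1.47% of old cells had a count, against 1.13% and 1.37% of young cells. The counting intervals were 2.50% to 8.69%, 1.31% to 4.95% and 0.479% to 3.40% in the old sets. They were 0.137% to 4.02% and 0.166% to 4.86% in the young sets. Each old interval overlapped both young ones, so these intervals set no old set apart from the young sets. One cell alone gave 16 of the 222 counts at this peak, and the 5 highest cells gave 16.2%.

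Within Gata1 itself the 3 peaks were sparse and none passed the filter. Their summed level was 8.66, 9.90 and 3.32 CPM in the old sets, against 2.99 and 1.80 CPM in the young sets. The old sets lay above the young sets, old 3 only just. The peak at the stated start, at 7544963 to 7545192, held 23 counts in old and 3 in young, a depth-adjusted ratio of 3.42 with an exact 95% counting interval of 1.03 to 17.8. Its neighbour at 7545449 to 7545676, centred 0.562 kb upstream, held 21 counts in old, none of them in old 3, and 4 in young, a ratio of 2.34 with an interval of 0.791 to 9.39. Without young 2 that ratio was 1.46. The third, at 7541038 to 7541489, lay 3.74 kb inside the gene, about where the first-intron element is described. It held 9, 3 and 1 counts in the old sets, against 0 in both young sets. With the old counts taken as exact and the young sets together given a floor of 3 counts, it was at least 1.94-fold higher in old. Counting error of the old counts is not part of this limit. This limit was 1.26 without old 1, 1.33 without young 1 and 0.601 without young 2.

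Beyond the enhancer lay 7 peaks, of which 1 passed the filter. That peak, at 7594315 to 7594709 and 49.5 kb upstream of the Gata1 start, measured 8.92, 5.73 and 5.98 CPM in the old sets, against 2.99 and 1.35 CPM in the young sets. The sets did not overlap, but with a log2 fold change of 1.90 ± 0.60 the peak was not called. It was called with library totals as the scale (2.00), with the X total as the scale (2.08) and with each cell counted at most once per peak (1.83). A pair of weak peaks stood 25.0 and 25.6 kb upstream, about where the far upstream element of Gata1 is described, at 7569905 to 7570143 and 7570467 to 7570666. The first held 8, 2 and 1 counts in the old sets, against 1 in each young set, a ratio of 2.46 (0.536 to 22.8) that was 1.42 without old 1 and 1.53 without young 2. The second held 5 counts in old, all of them in old 1, and 2 in young, both in young 2, a ratio of 1.12 (0.183 to 11.7). Both intervals include 1, so no difference was detectable there at this depth. The peak 18.2 kb upstream, at 7563034 to 7563275, held 12, 4 and 2 counts in the old sets, against 0 and 1 in the young sets, a ratio of 8.04 (1.27 to 335.0) that rests on the 1 count of young 2. The peak 32.9 kb upstream, at 7577691 to 7578031, held 12, 2 and 2 counts in the old sets, against 0 in both young sets. Against the same floor it was at least 2.38-fold higher in old, again with the old counts taken as exact. That limit was 1.26 without old 1, 1.64 without young 1 and 0.740 without young 2. The remaining pair, at 7577223 and 7592869, showed no steady direction. The first held 5, 2 and 0 counts in the old sets, against 1 and 0 in the young sets. The second held 17, 2 and 2 counts in the old sets, against 1 and 5 in the young sets, a ratio of 1.56 (0.610 to 4.73) that turned to 0.629 without old 1.

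Pim2, as its interval is stated, overlapped 3 peaks. At its stated start, 7454802 to 7456108, levels were 61.1, 58.9 and 51.8 CPM in the old sets, against 32.9 and 15.3 CPM in the young sets. The old sets were close together and above both young sets, which differed from each other by more than the old sets did. The log2 fold change was 1.39 ± 0.26 and the peak was called, but it was 0.84 without young 2 and 1.15 with thinned cells, and not called in either. Inside the gene, at 7456799 to 7457302, levels were 22.6, 22.9 and 15.3 CPM in the old sets, against 9.96 and 6.73 CPM in the young sets. These groups did not overlap either, and the log2 fold change of 1.39 ± 0.35 was called. It was not called without old 1 (1.32), without old 2 (1.32), without young 2 (1.08) or with DESeq2 (1.36). At the stated 3′ end, 7460885 to 7461773, levels were 46.7, 28.7 and 40.5 CPM in the old sets, against 33.9 and 23.8 CPM in the young sets. Here old 2 fell between the young sets, and the log2 fold change of 0.50 ± 0.25 was not called. It ran from 0.24 without young 2 to 0.73 without young 1, and was -0.26 with thinned cells. The peak at 7460885 reaches past the stated Pim2 end at 7461000, and Slc35a2, also on the plus strand, is the next gene. With positions this approximate, whether it belongs to Pim2 or to the start of Slc35a2 was not tested. Whether the 3 peaks differed from each other in fold change was not tested either.

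Ahead of Pim2 the window held 4 peaks, 3 of which passed the filter. The strongest, at 7442380 to 7443624, measured 54.6, 46.4 and 53.8 CPM in the old sets, against 20.9 and 13.0 CPM in the young sets. Its old sets were again close together and at least 2.22 times the highest young set, with a log2 fold change of 1.70 ± 0.27, called, though not with thinned cells (1.45). The peak at 7436290 to 7436943 measured 23.9, 25.0 and 20.6 CPM in the old sets, against 7.97 and 8.97 CPM in the young sets, with no overlap. Its log2 fold change was 1.43 ± 0.33, called, but not without young 2 (1.57) or with DESeq2 (1.44). The peak at 7431683 to 7432216 measured 10.5, 12.0 and 8.63 CPM in the old sets, against 2.99 and 4.04 CPM in the young sets. Although these sets did not overlap, its log2 fold change of 1.49 ± 0.46 was called, of the alternatives run, only with library totals (1.59) or the X total (1.67) as the scale. The fourth, at 7430058 to 7430278, held 6 counts in old and 3 in young, a ratio of 0.893 (0.191 to 5.52).

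Between Pim2 and Hdac6 lay 4 peaks, of which 2 were called. The pair nearest the Hdac6 end of this stretch made up the called ones. The first of it, at 7499177 to 7500468, measured 22.6, 14.1 and 28.6 CPM in the old sets, against 5.98 and 5.39 CPM in the young sets, with a log2 fold change of 1.94 ± 0.39, called. The second, at 7504372 to 7505616, measured 34.1, 19.3 and 38.5 CPM in the old sets, against 12.0 and 9.42 CPM in the young sets, with a log2 fold change of 1.56 ± 0.32, called. In both, old 2 was the lowest old set and lay above both young sets. Both lost the call without young 2, at 1.87 and 1.38.

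The other pair overlapped. The peak at 7475881 to 7477070 had the second highest level per length in old, and measured 65.1, 31.8 and 82.3 CPM in the old sets, against 44.8 and 44.0 CPM in the young sets. Old 1 and old 3 lay above the young sets and old 2 below them, and its log2 fold change of 0.42 ± 0.28 was not called. It ran from 0.21 without old 3 to 0.74 without old 2, and was 0.04 with the set number as a block. The peak at 7492839 to 7493160 measured 7.34, 5.73 and 5.98 CPM in the old sets, against 5.98 and 2.69 CPM in the young sets, with a log2 fold change of 0.76 ± 0.52, not called. Young 1 here lay within the range of the old sets, and the fold change was 0.15 without young 2 and 1.27 without young 1.

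**Figure D3:**
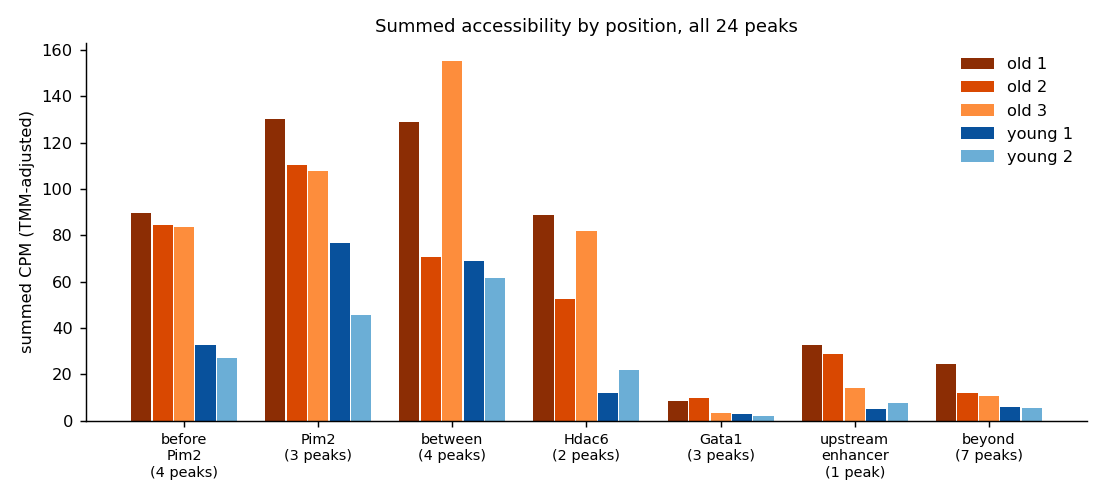
Summed CPM (TMM-adjusted, vertical axis) of all 24 peaks by their position relative to Pim2, Hdac6, Gata1 and the upstream enhancer, 1 bar per set. Old bars stand above young bars in every group of peaks, old 2 with a sum of 70.9 CPM between Pim2 and Hdac6 only just above young 1 at 68.7 CPM.

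By position, the log2 difference of summed levels was 1.52 ahead of Pim2, 0.92 over Pim2, 0.86 between Pim2 and Hdac6, 2.13 over Hdac6, 1.61 over Gata1, 1.99 at the enhancer and 1.46 beyond it. The sum over Pim2 includes the peak at its stated 3′ end, which may belong to Slc35a2. The old sums ahead of Pim2 lay close together, at 89.7, 84.4 and 83.7 CPM, against 32.9 and 26.9 CPM in the young sets. The sum between Pim2 and Hdac6 had the widest range in CPM, though not on the log2 scale, at 129, 70.9 and 155 CPM in the old sets, against 68.7 and 61.5 CPM in the young sets. The sets did not keep 1 order across the locus: old 2 was the lowest old set over Hdac6 and between Hdac6 and Pim2, and old 3 was the lowest over Gata1, its enhancer and beyond. The 11 peaks that did not pass the filter, 7 to 27 counts each, summed to 28.6, 18.8 and 9.96 CPM in the old sets, against 6.97 and 9.42 CPM in the young sets.

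At the nearest tested peaks on either side of the window, old was not higher beyond the spread of the sets. The nearest tested peak before it, at 7418063 to 7419631 and 12.1 kb from the first tested peak inside, measured 52.7, 33.9 and 30.6 CPM in the old sets, against 39.9 and 65.5 CPM in the young sets. Its log2 fold change was -0.44 ± 0.23. The nearest tested peak after it, at 7650940 to 7652294 and 56.2 kb from the last tested peak inside, measured 32.3, 31.3 and 31.9 CPM in the old sets, against 30.9 and 37.7 CPM in the young sets, with a log2 fold change of -0.13 ± 0.24. Sets overlapped at both. At 7673285 to 7674333 every old set was below both young sets (21.0, 22.4 and 12.6 CPM in old, against 23.9 and 39.0 CPM in young), with a log2 fold change of -0.78 ± 0.27, not called. Within 500 kb on either side of the Hdac6 start, 32 tested peaks lay outside the window, 0 were called in either direction, and their median log2 fold change was -0.11. Their values ran from -1.07 ± 0.43 to 2.57 ± 1.22, the last above that of every peak in the window. How much of this edge comes from where the window was drawn was not tested.

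**Figure D4:**
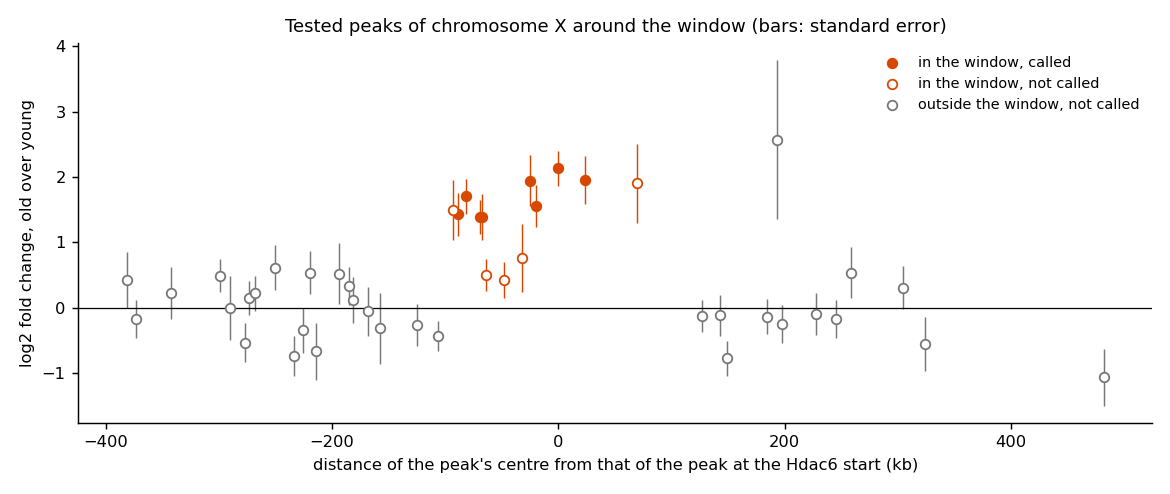
Log2 fold change of old over young (vertical axis, bars are SE) for each tested peak of chromosome X by distance in kb from the peak at the Hdac6 start. All 13 peaks in the window lie above 0, with 8 called (filled), and the 32 peaks outside lie on both sides of 0 with none called. The highest point, 2.57 ± 1.22 at 193.2 kb, lies outside the window.

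Outside the window, chromosome X took 1.86%, 2.01% and 1.99% of all counts in the old sets, against 2.12% and 2.06% in the young sets, the opposite order to that of the locus. With the X total as the scale its log2 difference was 1.43. Chromosome Y took 0.00175%, 0.00273% and 0.00177% of counts in the old sets, against 0.00603% and 0.00672% in the young sets. The part of the sex chromosomes' share in these values was otherwise not tested.

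At the level of single cells, the share with the locus covered was higher in every old set at equal depth but not before thinning. At equal depth, 55.0%, 40.1% and 53.5% of old cells had a count in at least 1 of the 24 peaks, against 23.2% and 23.3% of young cells. Before thinning the shares were 75.8%, 69.7% and 77.3% in the old sets, against 55.2% and 70.9% in the young sets, and old 2 lay just below young 2. Cells with counts in exactly 2 peaks made up 11.3%, 8.17% and 12.1% of the old sets, against 3.39% and 2.74% of the young sets. With 3 or more peaks it was 5.86%, 0.272% and 2.06% in old, against 1.13% and 0% in young, the last being 0 of 146 cells, which allows a share of up to 2.05%.

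The number of covered peaks per cell had a variance over mean of 1.02, 0.883 and 0.829 in the old sets, against 1.19 and 0.957 in the young sets. A Poisson distribution with each set's mean would leave 45.5%, 61.4% and 49.8% of old cells and 75.0% and 77.1% of young cells with no covered peak. The observed shares were 45.0%, 59.9% and 46.5% in old and 76.8% and 76.7% in young, and the widest distance from it was 3.33 percentage points, in old 3. The 5 cells with most counts held 10.9%, 12.9% and 8.30% of the locus counts in the old sets, against 12.2% and 14.2% in the young sets, and the rest was spread over the other cells.

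**Figure D5:**
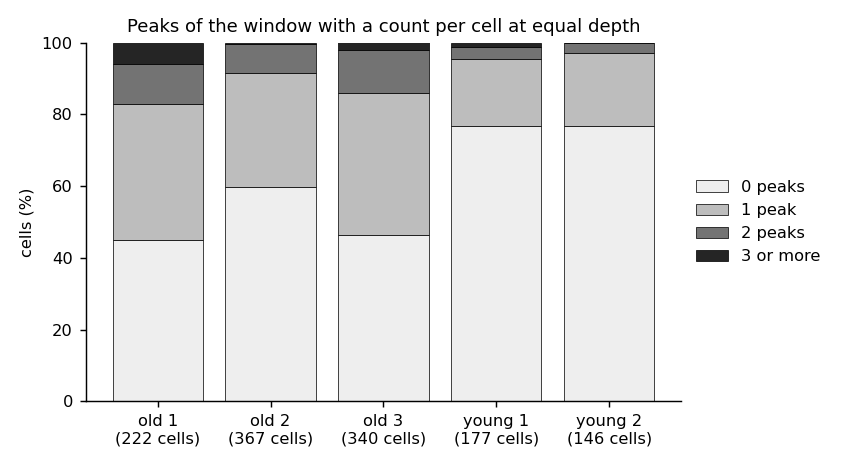
Share of cells (%, vertical axis) by the number of the 24 peaks with a count after thinning each cell to 1906 counts, 1 bar per set. Cells with no covered peak make up 45.0% to 59.9% of the old sets, against 76.8% and 76.7% of the young sets.

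Peaks of the locus were seldom covered in the same cell. In the 929 thinned old cells, 99 had a count at the Hdac6 start and 82 at the peak 48.5 kb towards Pim2, and 16 had both, where 9.40 would be met if the peaks were unrelated within each set. The excess came from old 1 (7 cells, 3.40 if unrelated) and old 2 (4 cells, 1.18), while old 3 had 5 cells, close to 4.82. The Hdac6 start and the Pim2 start were covered together in 4 old cells, where 8.07 would be met, though in old 1 it was 3 cells, where 2.09 would be met. The peak at 7442380 shared 3 old cells with the Hdac6 start, where 8.02 would be met, and 3 with the peak 48.5 kb towards Pim2, where 6.72 would be met. The Hdac6 start and the Gata1 enhancer shared 2 old cells, where 2.86 would be met. The enhancer shared 4 old cells with the peak 48.5 kb towards Pim2, where 2.29 would be met. It shared 3 with the peak at 7442380 (2.26 if unrelated) and 2 with the Pim2 start (1.99 if unrelated). The Pim2 start shared 5 with the peak at 7442380 (5.81 if unrelated) and 6 with the peak 48.5 kb towards Pim2 (6.94 if unrelated). The enhancer was added to these pairs after its values were seen. With counts this sparse these numbers are a description only. In young cells the Hdac6 start was covered in 6 of 323.

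The 3 peaks outside the window whose level followed the summed locus most closely over the 5 sets were chr17:6845112-6846023, chr19:15957309-15958066 and chr2:180806861-180807201. Their Pearson r of log2(CPM + 1) was 0.9994, 0.9993 and 0.9993 over 5 points, the highest of 58154 tested peaks and so picked for it. The peak on chromosome 17 measured 47.0, 41.2 and 44.5 CPM in the old sets, against 31.9 and 30.1 CPM in the young sets.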

How the data were processed

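Each sample is 1 cell, profiled by plate-based single-cell ATAC-seq, per the labels. The authors deposited raw counts per peak and cell for 115295 peaks and 1392 cells. Trim Galore, FastQC, Bowtie2, SAMtools and Picard are named, per the submitters' processing notes, with the build mm9. Not given in the sources used here are the peak caller, duplicate handling, the shift of cut sites, the filter on cells and whether starts count from 0 or 1. If peaks were called on cells of both ages together, they could favour regions open in old, the age with more counts. This was not tested.

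The columns' names gave each cell's age and set, and no columns were identical. Counts were summed per set (1159957 to 4181770) and compared with edgeR 4.0.16 under R 4.3.3 (TMM, filterByExpr with a minimum count of 10, robust quasi-likelihood fit, Benjamini-Hochberg adjustment over all 58167 tested peaks). SE was derived by dividing each log2 fold change by the root of its F statistic. DESeq2 1.42.0, scalings, filters, binarized counts, cell filters, thinning, equal cell numbers, a set block and each set left out were the alternatives. The edgeR step was tested on simulated data, with changes put on peaks that were not among the lowest in counts. It called 22 of 100 peaks with a simulated log2 of 1, 99 of 100 with a log2 of 2 and 4 of 54173 unchanged. A log2 of 1 was thus mostly missed in the simulation. Shares of cells were taken after thinning to 1906 counts per cell, the 10th percentile of depth. Intervals (scipy 1.17.1) cover counting error only, and floors cover only that of the young counts.

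Members, lists and the window were chosen with earlier results of these data known. Every member that passed the filter is named; the rest are given where a group has no other, and the low members beyond the enhancer and ahead of Pim2 were added after their values were seen. Positions follow mm9; promoter windows are RefSeq's of GRCm38.p6. With no mm9 annotation used here, marker genes of the sort and of other cell types were not analysed here. Deviations of same-numbered sets from the mean of their age had correlations of -0.07 and 9e-04 over the tested peaks. Counting noise weakens such correlations, so they cannot decide whether these sets are pairs. As the labels name no pairs, numbers were not taken as pairs in the main fit.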

Additional observations from a re-analysis of the deposited data

How the results depend on the processing

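The summed locus kept its direction and moved by less than the spread between sets under every alternative that recomputed it, from 1.08 with binarized cells to 1.43 with the X total as the scale, and from 1.15 to 1.38 with each set left out in turn. The X total moved the median of all tested peaks to 0.17, from -0.01, and that of the 13 members to 1.67, from 1.49. The count of members called was 1 with cells thinned to 1 depth, where 5 were tested, and 3 to 8 with each set left out, the lowest without young 2. It was 6 with DESeq2 and 10 with library totals or the X total. Under a replicate block on the set number it was 8, although the labels do not say that same-numbered sets are pairs.

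Over all tested peaks 1844 were called, and 840 at an adjusted p under 0.01, 769 with a minimum count of 30, 1102 under the replicate block, 208 with thinned cells, 753 with equal numbers of cells, 436 with DESeq2 and 776 to 1641 with each set left out. Higher and lower calls in old numbered 808 and 1036, but 1051 and 770 with library totals, 1294 and 600 with the X total, 845 and 817 with binarized cells, 762 and 592 without old 1, and 64 and 144 with thinned cells. The peak at the stated 3′ end of Pim2 changed sign with thinned cells (-0.26), the 1 reversal among single members. Causes of these changes were not tested. With thinned cells 13896 peaks were tested, and without young 2 61338, beside 58167 in the main fit. Depth limits the 11 members with 27 counts or fewer, which were tested only with no count filter and not called there. Their ratios without each set were added after seeing the data.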
